A study of Gallus gallus with 6 samples.

Results

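MMP1, MMP9 and MMP10, 3 genes of the matrix metalloprotease (MMP) family, were examined out of 19152 genes in RNA sequencing of the chicken magnum, the oviduct segment in which egg white is made and secreted. They were taken by their Ensembl identifiers, ENSGALG00000019061 (MMP1), ENSGALG00000006992 (MMP9) and ENSGALG00000019063 (MMP10), and all 3 had enough counts to be tested. MMP1 and MMP9 had enough through the laying hens, with 19 to 119 counts per laying hen and 2 to 16 per non-laying hen. The study had picked all 3 genes as upregulated in these same libraries, so their tests are no independent evidence of a difference. The libraries came from 3 laying (layers) and 3 non-laying (non-layers) hens of the Hy-line strain (white, per the study's methods), with a single library from each bird. Layers, aged 35 weeks, were taken 3 h post-ovulation, with the egg in the magnum. Non-layers were between 35 and 60 weeks of age, came from different flocks and had an atrophied oviduct without maturing follicles in the ovary. Laying status, age and flock cannot be told apart in this design. In whole tissue, fewer cells of a type and less RNA per cell cannot be told apart either.

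Matrix metalloproteases are zinc-dependent enzymes that cut proteins of the extracellular matrix. Most are secreted as inactive proenzymes, are activated when their propeptide is removed by plasmin or by other proteases, and are held in check by the tissue inhibitors of metalloproteases (TIMPs). In mammals, MMP1 is the interstitial collagenase, which cuts the fibrillar collagens, MMP9 is a gelatinase, which cuts denatured collagen and the collagen of basement membranes, and MMP10 is a stromelysin, which cuts a broad range of matrix proteins. In the hen oviduct enzymes of this family are known for the remodelling that goes with growth and regression of the tissue. For MMP10 mRNA the study knew of no earlier report there.

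The deposited annotation placed MMP1 on chromosome 1 (182507123 to 182513346, build Galgal 5.0) and MMP10 on the same chromosome (182479610 to 182486231), 20.9 kb apart. In the RefSeq annotation of the later assembly GRCg7b, 5 family genes follow each other there in the order MMP13, MMP10, MMP3, MMP1 and MMP27, with a noncoding gene between MMP10 and MMP3. MMP9 lies on chromosome 20 (10773802 to 10777893, Galgal 5.0), and ZNF335 and SLC12A5 flank it in GRCg7b. All 3 are listed as protein coding, with summed exon lengths of 1401 bases for MMP1, 2457 for MMP9 and 1780 for MMP10. Their counts were whole numbers in all 6 libraries. The study followed these transcripts with qPCR as well, whose values are not used here. The primers that the study lists for that qPCR are given as its probes of these genes, each 5′ to 3′. They were not matched to a genome here. The transcript accession listed with the primers is, version aside, that of the gene in the RefSeq annotation of GRCg7b for MMP1 and MMP9 but not for MMP10, so the target of the MMP10 primers was not established here.
MMP1 forward: ctctgaaagtctggagcagt
MMP1 reverse: acaagttgtagcctcttcca
MMP9 forward: tcaaggtgtggagtgatgtc
MMP9 reverse: cttcacctctaagccggttc
MMP10 forward: ggcaacaagtattggagttttgatg
MMP10 reverse: tgctcttcattttacggacca

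The libraries held between 18840042 and 25763732 counts each. A single gene, ENSGALG00000012869, for which no name was paired, accounted for 49.4% to 53.6% of a layer's counts but for 19.8%, 36.5% and 1.33% of those of non-layers 1, 2 and 3. Avidin (AVD), an egg-white protein, was the only one of 7 listed egg-white genes that could be paired with an identifier. It was between 838 and 2000 CPM in layers and between 2.26 and 3.03 CPM in non-layers. Levels are given as CPM, counts brought to a common library size, with library sizes scaled by TMM (trimmed mean of M-values), and CPM of the unscaled total counts stand beside them. Without the scaling, the median log2 fold change of all 12499 tested genes, layers over non-layers, moved from 0.004 to -1.80. Calls required more than a 3-fold change together with an adjusted p below 0.05 (edgeR's quasi-likelihood test, Benjamini-Hochberg adjustment over all tested genes), which are the thresholds of the study.

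MMP1 and MMP9 were upregulated in the magnum of layers. MMP1 rose 55.3-fold (log2 fold change 5.79, standard error 0.61, edgeR adjusted p = 0.00676) and MMP9 rose 23.9-fold (log2 fold change 4.58, standard error 0.81, edgeR adjusted p = 0.0182). MMP10, the most abundant of the 3, had a log2 fold change of 2.60 with a standard error of 0.71 and was not called, its edgeR adjusted p being 0.0638 and its unadjusted p 0.00603. Of the 3 genes 2 were called higher, where 1.28% of all tested genes were. For all 3, the TMM-scaled CPM of the lowest layer exceeded that of the highest non-layer, as was so for 15.1% of the tested genes. Since the study had picked the 3 genes as upregulated in these libraries, nothing is read from these counts. Among the 160 genes called higher in layers, MMP1 had the 7th largest fold change and MMP9 the 17th.

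The collagenase gene MMP1 was at 5 counts or fewer in each non-layer. Layers 1, 2 and 3 had 30, 109 and 45 counts of it, and non-layers 1, 2 and 3 had 2, 2 and 5. After scaling, the layers were at 2.69, 6.81 and 3.01 CPM and the non-layers at 0.0511, 0.0673 and 0.0903 CPM. The lowest layer was 29.8-fold above the highest non-layer, and 4.51-fold above it on unscaled total counts. MMP1 averaged 4.17 ± 2.29 CPM in layers and 0.0696 ± 0.0197 CPM in non-layers (mean ± SD, n = 3 each). Because the non-layers hold so few counts, the fold has a wide counting interval. The pooled 184 and 9 counts gave a ratio of 60.3 with a 95% exact counting interval of 31.1 to 134.0 on the scaled library sizes, and of 17.9 (9.24 to 39.8) on total counts. Counting intervals throughout cover counting error only and leave out the variation between hens. Reads that carry no molecular identifier are not independent molecules, so even the counting error may be larger than shown. By RPKM (counts per kilobase of exon and library total), 65.1%, 47.7% and 63.0% of the genes with a count lay above MMP1 in layers 1, 2 and 3, and between 91.9% and 95.2% did in non-layers.

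**Figure D1:**
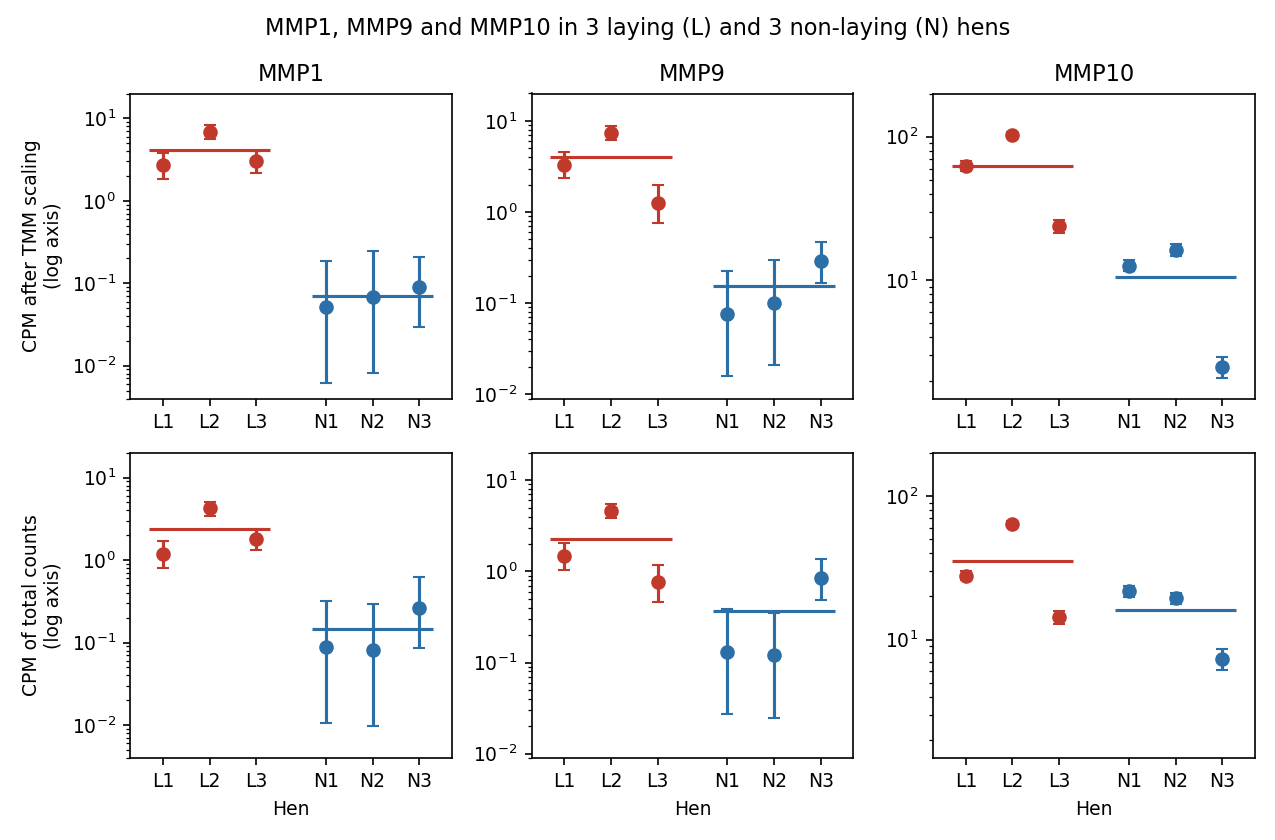
CPM of MMP1, MMP9 and MMP10 (columns) in layers (L1 to L3, red) and non-layers (N1 to N3, blue), on TMM-scaled library sizes (top row) and on total counts (bottom row), all on log axes. Points are hens, bars are 95% exact Poisson intervals of the count and horizontal lines are group means. The groups are apart for all 3 genes in the top row, and those of MMP9 and MMP10 overlap in the bottom row.

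MMP9, the gelatinase gene, was also at few counts in non-layers, but less evenly. It had 37, 119 and 19 counts in layers 1, 2 and 3, whereas non-layers 1, 2 and 3 had 3, 3 and 16. The scaled levels were 3.32, 7.43 and 1.27 CPM in layers and 0.0767, 0.101 and 0.289 CPM in non-layers, so layer 3 was the lowest of its group and non-layer 3 the highest of the other. MMP9 averaged 4.01 ± 3.14 CPM in layers and 0.156 ± 0.116 CPM in non-layers (mean ± SD, n = 3 each). The pooled 175 and 22 counts gave a ratio of 23.4 (95% exact counting interval 15.0 to 38.4) on scaled library sizes and of 6.98 (4.47 to 11.4) on total counts. By RPKM, between 57.7% and 79.9% of the genes with a count lay above MMP9 in layers, and between 88.6% and 95.9% in non-layers.

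On unscaled total counts layer 3 (0.762 CPM) and non-layer 3 (0.849 CPM) changed order in MMP9. The log2 fold change of MMP9 was 2.65 there (edgeR adjusted p = 0.0126). On those counts 7896 of the 12499 tested genes were called, but only 47 of them as higher in layers, MMP9 included. The median log2 fold change of all tested genes was -1.80 there. Since MMP9 had been picked as higher in these libraries, nothing is read from its call. The MMP9 call was lost without layer 1, layer 2 or non-layer 1, at edgeR adjusted p of 0.0783, 0.0771 and 0.0552, and it held without any 1 of the other 3 hens. Its log2 fold change was 4.72, 3.78 and 4.26 in those fits. Over all tested genes the calls fell from 623 to 20, 16 and 285 there, so the losses were not particular to MMP9. Over all alternatives the adjusted p of MMP9 ran from 5.83e-08 to 0.0783.

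Leukocytes are a well-known source of MMP9 in other tissues. Of 6 leukocyte markers listed for comparison only PTPRC, the gene of the common leukocyte antigen CD45, could be paired with an identifier, and of 5 heterophil markers none could. PTPRC fell in layers (log2 fold change -2.05, standard error 0.43, edgeR adjusted p = 0.0286). Layers 1, 2 and 3 had 41, 82 and 86 counts of PTPRC, or 3.68, 5.12 and 5.75 CPM, and non-layers 1, 2 and 3 had 474, 420 and 1889, or 12.1, 14.1 and 34.1 CPM. MMP9 and PTPRC moved in opposite directions between the groups, and non-layer 3 was the highest non-layer for both. The PTPRC call was lost without layer 1, 2 or 3 (edgeR adjusted p = 0.129, 0.111 and 0.0546) and, by its log2 fold change of -1.42, without non-layer 3. Per 1000 PTPRC counts, MMP9 had 902, 1450 and 221 counts in layers 1, 2 and 3, but 6.33, 7.14 and 8.47 in non-layers 1, 2 and 3. PTPRC could be followed only because the study had called it changed in these libraries, and MMP9 had been picked there as higher. This ratio was also chosen after the values were seen, so its direction is no finding. The part of leukocytes in the MMP9 level was not tested.

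MMP10, the stromelysin gene, was the main transcript of the 3 in every hen. It made up 88.2% of their summed counts in layers and 97.3% in non-layers. Layers 1, 2 and 3 had 698, 1641 and 356 counts of MMP10, and non-layers 1, 2 and 3 had 495, 482 and 137. The scaled levels, 62.6, 102.5 and 23.8 CPM in layers and 12.7, 16.2 and 2.47 CPM in non-layers, did not overlap, with layer 3 only 1.47-fold above non-layer 2. MMP10 averaged 62.9 ± 39.3 CPM in layers and 10.5 ± 7.14 CPM in non-layers (mean ± SD, n = 3 each). The pooled 2695 and 1114 counts gave a ratio of 7.13 (95% exact counting interval 6.65 to 7.65) on scaled library sizes and of 2.12 (1.98 to 2.28) on total counts. These narrow intervals leave out the spread between hens, which the standard error of 0.71 on the log2 fold change of 2.60 takes in. By RPKM, 34.9%, 30.1% and 68.5% of the genes with a count lay above MMP10 in non-layers 1, 2 and 3, and between 4.84% and 23.6% in layers, so MMP10 was well detected in both groups.

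The groups overlapped in MMP10 on total counts, since layer 3 (14.3 CPM) lay below non-layers 1 and 2 (21.8 and 19.3 CPM), and the log2 fold change was 1.13 (edgeR adjusted p = 0.0537). DESeq2 gave MMP10 a log2 fold change of 2.60 with an adjusted p of 0.00106, past both thresholds. The study used DESeq2 as built into Array Studio, whereas the fit here was a separate run on the rounded deposited counts. Its folds were not matched to those of the study. With edgeR, MMP10 passed them without layer 3 (2.99, edgeR adjusted p = 0.0499). Over all alternatives MMP10 had a positive log2 fold change, of 0.93 to 3.07, with adjusted p of 0.00106 to 0.193.

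**Figure D2:**
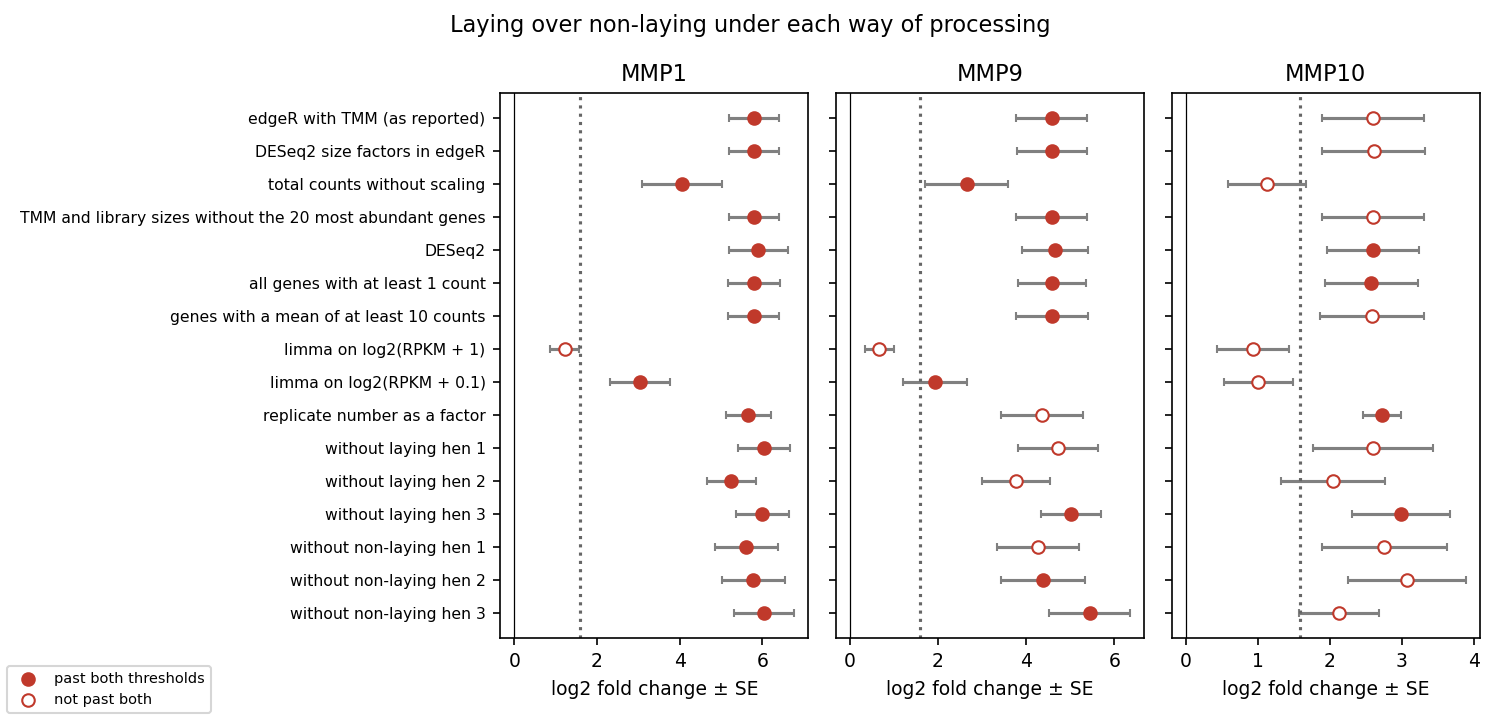
Log2 fold change of each gene, layers over non-layers, with its standard error, under each way of processing the data. Filled points passed both thresholds, open points did not, the solid line marks 0 and the dotted line a 3-fold change. All points lie above 0, and MMP1 was called in all settings but limma on log2(RPKM + 1).

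Among layers, the 3 genes spread more than most. The SD of log2 CPM was 0.72 for MMP1, 1.24 for MMP9 and 1.07 for MMP10, where the median of all tested genes was 0.34, and 85.2%, 96.6% and 94.7% of tested genes varied less. These shares are over genes of all count levels. MMP1 and MMP9 had 19 to 119 counts per layer, so counting error adds to their spread. Layer 2 had the highest level of all 3. Layer 3 had the lowest MMP9 and MMP10, whereas its MMP1 of 3.01 CPM was close to the 2.69 CPM of layer 1. The highest layer was 2.53-fold above the lowest for MMP1, 5.85-fold for MMP9 and 4.31-fold for MMP10. Among non-layers, MMP10 again varied widely, with an SD of 1.45 that 97.9% of genes stayed under. MMP1 had an SD of 0.20 there, which rests on 2 to 5 counts per hen and a prior count of 2. Non-layer 3 had the lowest MMP10 of the non-layers on scaled and on total counts, whereas non-layers 1 and 2 changed order between them, with 12.7 and 16.2 CPM scaled and 21.8 and 19.3 CPM on total counts.

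Ratios of 2 genes within a library do not depend on the scaling between libraries. They were used to ask whether the 3 genes differed from each other in how they changed, with 3 pairs compared, p-values adjusted over the 3, and 0.1 as the smallest p that a permutation of 3 hens against 3 allows. Per 100 MMP10 counts, MMP1 had 4.30, 6.64 and 12.6 counts in layers 1, 2 and 3, but 0.404, 0.415 and 3.65 in non-layers 1, 2 and 3. The groups did not overlap, although the counting interval of non-layer 3 (1.17 to 8.73) takes in the values of layers 1 and 2. The log2 ratio averaged -3.81 ± 0.78 in layers and -6.88 ± 1.82 in non-layers (mean ± SD, n = 3 each), a difference of 3.07 that this design cannot carry past the threshold (two-sided exact permutation test, p = 0.1, adjusted p = 0.15).

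The ratio of MMP9 to MMP10 set non-layer 3 apart. Per 100 MMP10 counts, MMP9 had 5.30, 7.25 and 5.34 counts in layers 1, 2 and 3, an even level, but 0.606, 0.622 and 11.7 in non-layers 1, 2 and 3. The value of non-layer 3, with a 95% exact binomial counting interval of 6.49 to 19.7, was the highest of the 6 hens, and the intervals of the other 2 non-layers ended at 1.78 and 1.83. The groups overlapped, and differed by 1.85 on the log2 scale (two-sided exact permutation test, p = 0.4, adjusted p = 0.4), or by 3.26 without non-layer 3.

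MMP1 and MMP9 had nearly equal counts in layers 1 and 2, with 81.1 and 91.6 MMP1 counts per 100 MMP9 counts, whereas layer 3 had 237.0. The same ratio was 66.7, 66.7 and 31.2 in non-layers 1, 2 and 3, with counting intervals as wide as 5.57 to 582.0. The difference of 1.22 on the log2 scale (two-sided exact permutation test, p = 0.1, adjusted p = 0.15) was not distinguishable from counting error in non-layers 1 and 2, whose intervals span those of all layers.

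**Figure D3:**
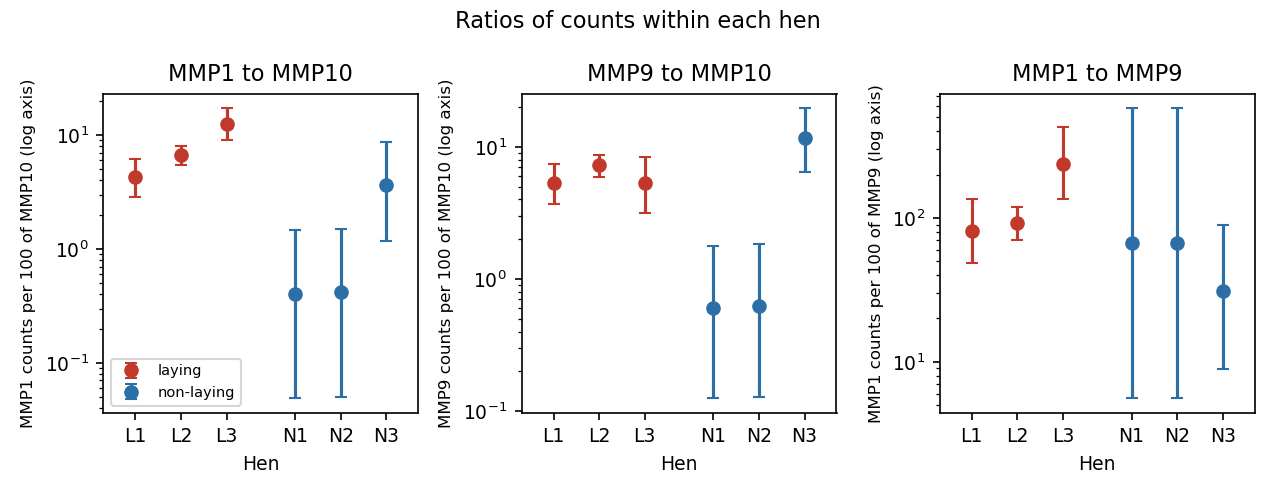
Counts of the first gene per 100 counts of the second within each library, for layers (L1 to L3, red) and non-layers (N1 to N3, blue), on log axes with 95% exact binomial intervals for counting error. In the middle panel non-layer 3 (11.7) lies with the layers (5.30 to 7.25) rather than with non-layers 1 and 2 (0.606 and 0.622).

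Levels of different genes were set side by side per length, as deposited RPKM. MMP10 had 15.6, 35.8 and 8.02 RPKM in layers 1, 2 and 3, MMP1 had 0.854, 3.02 and 1.29 RPKM and MMP9 had 0.601, 1.88 and 0.310 RPKM. The order MMP10, MMP1, MMP9 held in each layer, with MMP10 between 6.23-fold and 18.3-fold above MMP1. MMP1 was 1.42, 1.61 and 4.15 times MMP9 per length in layers 1, 2 and 3, and only in layer 1 did the 95% exact counting interval of this ratio, 0.848 to 2.37, include equal levels. In non-layers MMP10 had 12.2, 10.9 and 4.09 RPKM, while MMP1 had between 0.0573 and 0.189 RPKM and MMP9 between 0.0490 and 0.346 RPKM. MMP1 and MMP9 could not be ordered per length in any non-layer at this depth, since the interval of their ratio was 0.0977 to 10.2 in non-layers 1 and 2 and 0.157 to 1.57 in non-layer 3.

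For each gene, the 5 tested genes with the most like profile were sought by the distance between log2 CPM values over the 6 hens, each gene's mean removed. This is a description of 6 libraries in which the difference between the groups dominates. MMP1 and MMP9 had between 2 and 16 counts in each non-layer, so the prior count of 2 shapes their profiles there. Nearest to MMP1 was ACE, the angiotensin-converting enzyme, at a distance of 1.26, with 136, 125 and 91.0 CPM in layers 1, 2 and 3, but 5.65, 5.15 and 7.87 CPM in non-layers 1, 2 and 3. SLC51B, a subunit of an organic solute transporter, was nearest to MMP9, at a distance of 1.11, and second to MMP1, at 1.54. SLC51B had 2.24, 10.4 and 1.20 CPM in layers and between 0.0673 and 0.126 CPM in non-layers, as low there as MMP1 and MMP9. MMP9 was itself among the 5 genes nearest to MMP1, at a distance of 1.70, together with DOCK5, an activator of Rac GTPases. Also near MMP9 were Id3, an inhibitor of helix-loop-helix transcription factors, EAF2, a partner of the elongation factor ELL, and ACE.

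MMP10 had other neighbours, and stood 3.58 from MMP1 and 3.37 from MMP9. Nearest was SLC16A5, a member of the monocarboxylate transporter family, at a distance of 0.85, with 103, 115 and 31.3 CPM in layers 1, 2 and 3, but 12.6, 18.1 and 4.97 CPM in non-layers 1, 2 and 3. RASD1, a small GTPase known in mammals as induced by dexamethasone, stood at 1.16, with 599, 625 and 270.0 CPM in layers beside 147, 77.5 and 18.3 CPM in non-layers. In both genes layer 3 and non-layer 3 were the lowest of their groups, as in MMP10. The other 3 neighbours of MMP10, and 1 each of MMP1 and MMP9, are listed without a name. Of the 12 genes near any of the 3 and outside them, 8 passed both thresholds as higher (edgeR), where 1.28% of tested genes did, and nothing is read from this count, because the genes were chosen for profiles like those of genes high in layers. The number past both thresholds was 6 on total counts, 1 without layer 1, 1 without layer 2 and 3 without non-layer 1.

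**Figure D4:**
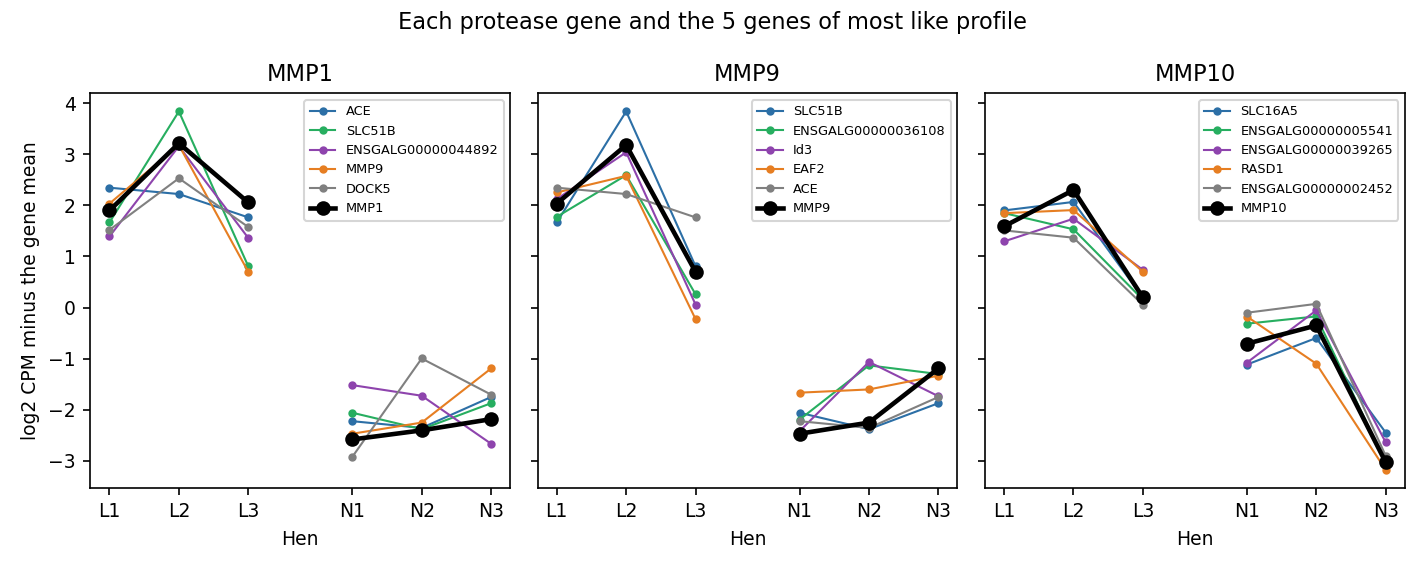
Log2 CPM minus the gene's own mean over 6 hens for MMP1, MMP9 and MMP10 (black) and the 5 genes of most like profile (colours). Lines join the hens of a group to guide the eye, and the hens have no order. MMP1, MMP9 and their neighbours are low in all non-layers, whereas MMP10 and its neighbours are lowest in non-layer 3.

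Other genes of the matrix and its breakdown were compared as far as a name was paired with an identifier, which only the study's own tables of differentially expressed genes do, so those genes had been picked for a difference in these libraries. Of 20 MMP family genes listed, only the 3 described here could be followed, and of 7 inhibitor genes, TIMPs included, and 12 transcription factors of MMP promoters none could. Of 9 genes of plasminogen and proprotein activation, only TMPRSS9, a transmembrane serine protease, was paired, and it rose by a log2 fold change of 7.57 (standard error 0.85, edgeR adjusted p = 0.00737). Of 24 ADAM and ADAMTS proteases, relatives of the MMPs with a disintegrin domain, only ADAM19 was paired. It had 0, 3 and 2 counts in layers 1, 2 and 3, but 33, 18 and 66 in non-layers 1, 2 and 3, and missed the threshold (edgeR adjusted p = 0.0510).

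The matrix genes that could be followed were lower in layers. Their choice by the study had fixed that they differed, though not in which direction. It was made from these same libraries, so the direction is no independent evidence either. Of 8 fibrillar collagen genes and their partners, 3 were paired (COL3A1, COL5A1 and COL14A1), and of 22 genes of basement membranes and other matrix 4 were (COL4A5, COL4A6, LAMA1 and VCAN). All 7 fell in layers, with log2 fold changes from -3.21 (VCAN) to -1.79 (COL5A1). Of all tested genes 3.7% were called lower and the median log2 fold change was 0.004, but the 7 had names only because the study had called them in these libraries, so nothing is read from their count. COL3A1, a chain of fibrillar collagen and in mammals a substrate of MMP1, averaged 248 ± 12.4 CPM in layers and 1430 ± 506 CPM in non-layers (mean ± SD, n = 3 each). COL4A5, a chain of the collagen of basement membranes, averaged 18.4 ± 6.58 CPM in layers and 117 ± 55.7 CPM in non-layers (mean ± SD, n = 3 each). LUM, the only one of 5 fibroblast markers that was paired, fell as well, with a log2 fold change of -1.84. All 7 matrix genes were called under each scaling and without non-layer 3, but 1 of them without layer 1 and 0 without layer 2, and LAMA1 alone was lost without layer 3, non-layer 1 or non-layer 2 (edgeR). LUM too lost its call without layer 1 or 2 (edgeR adjusted p = 0.0633 and 0.0548).

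**Figure D5:**
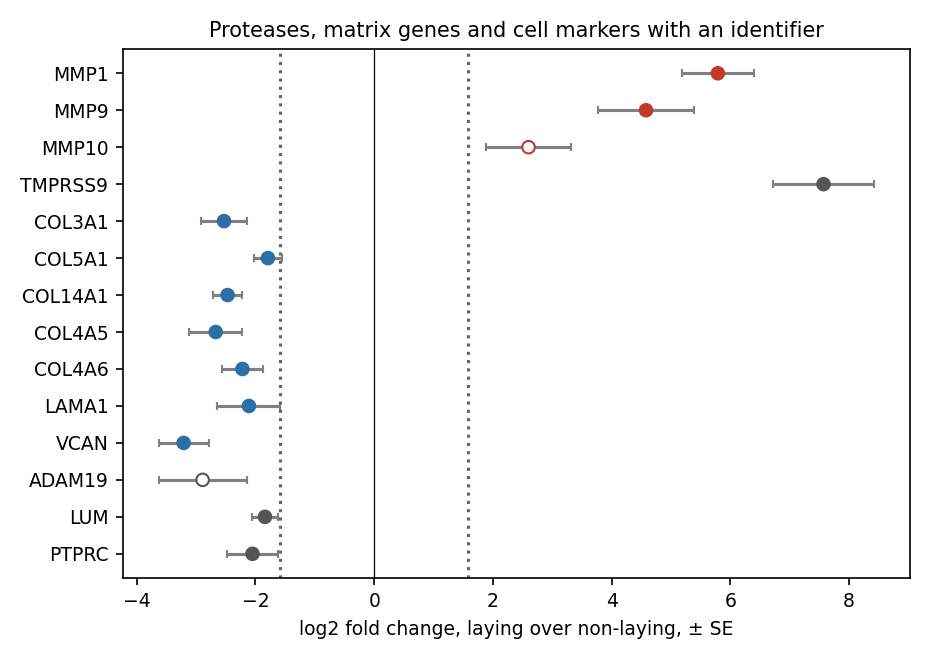
Log2 fold change, layers over non-layers, with its standard error, for the MMPs (red), matrix genes (blue), and other proteases and cell markers (grey) that have an identifier, AVD left out. Filled points passed both thresholds and dotted lines mark 3-fold changes. MMP1, MMP9, MMP10 and TMPRSS9 lie to the right of 0 and the 7 matrix genes, ADAM19, LUM and PTPRC to the left.

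The ratio of protease to collagen counts within a hen is not altered by scaling. Per 1000 COL3A1 counts, MMP1 had 11.5, 26.4 and 11.9 counts in layers 1, 2 and 3, but 0.0260, 0.0491 and 0.0943 in non-layers 1, 2 and 3. MMP10 had 267, 397 and 94.2 per 1000 COL3A1 counts in layers, whereas its ratio in non-layers was 6.44, 11.8 and 2.59. MMP9 had 14.2, 28.8 and 5.03 in layers beside 0.0390, 0.0737 and 0.302 in non-layers. None of these 3 ratios overlapped between the groups. They set genes that had been chosen as higher against a gene that had been chosen as lower, so neither their direction nor their lack of overlap is a finding. COL3A1 alone was at 234 to 258 CPM in layers and at 957 to 1960 CPM in non-layers. The share of all genes whose ratio to COL3A1 would not overlap was not computed.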

How the data were processed

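Stranded mRNA libraries of 6 magnum samples were read single-end at 76 bp. Prinseq cleaning and alignment to Galgal 5.0 in Array Studio version 10 were done by the authors, who deposited estimated counts (expected counts) per gene of Ensembl release 94, not normalized. The deposited RPKM were computed by the authors from these counts, exon length and library total. From the authors' table of differentially expressed genes, which holds fold changes, p-values and group means, only names, coordinates and exon lengths were used. Names came with 409 of its 540 genes, 35 of them through the study's supplementary table. The names MMP1 and MMP10 are among those from the supplementary table, whereas MMP9 is named in the deposited one.

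Counts were rounded, filtered (filterByExpr, leaving 12499 of 19152 genes), scaled by TMM (factors 0.445 to 0.622 in layers, 1.19 to 2.94 in non-layers, so that 1 count is 0.0181 to 0.0896 CPM) and tested two-sided without covariates by the quasi-likelihood functions of edgeR 4.0.16 (R 4.3.3). Standard errors are log2 fold changes divided by the square root of F. Alternatives were DESeq2 1.42.0, limma 3.58.1, other scalings and filters, a replicate block and fits without each hen. Ratios were compared by exact permutation tests (scipy 1.17.1). The code was tested on simulated data in which all libraries shared a single gene profile apart from the changed genes. That test did not cover the difference in composition between these libraries.

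The 3 genes, lists and tests were chosen with earlier results of these data known. Named were the 3 genes, listed genes with an identifier and, for each of the 3, the 5 genes with the smallest distance between centred log2 CPM profiles (prior count of 2).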

Additional observations from a re-analysis of the deposited data

How the results depend on the processing

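MMP1, MMP9 and MMP10 had positive log2 fold changes under all 15 alternatives each. The alternatives reuse the same libraries and some nearly repeat the main fit, so they are not separate checks. For MMP1 the log2 fold change was 5.80 with the size factors of DESeq2 in edgeR, but 4.05 on total counts. MMP1 stayed past both thresholds in 14 of the 15 alternatives. It lost the fold threshold with limma on log2(RPKM + 1), at 1.22, a scale that compresses changes of low genes. MMP9 lost its call there (0.67), with the replicate block (4.37) and without layer 1 (4.72), layer 2 (3.78) or non-layer 1 (4.26). MMP10 passed both thresholds with DESeq2 (2.60), with every gene of 1 count or more tested (2.58), with the replicate block (2.73) and without layer 3 (2.99). With each hen left out, log2 fold changes ran from 5.25 to 6.04 for MMP1, 3.78 to 5.44 for MMP9 and 2.05 to 3.07 for MMP10.

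Over all genes, 623 were called, 160 of them higher. The count was 7896 (47 higher) on total counts, 1009 with DESeq2, 3845 and 7040 with limma on log2(RPKM + 1) and log2(RPKM + 0.1), and 397 with the replicate block. It ran from 16 to 639 with each hen left out, with 20 called without layer 1, 16 without layer 2 and 285 without non-layer 1. The cause was not tested. The sample titles number the hens within each group and state no pairing between groups. Deviations of hens of the same number correlated at 0.179, -0.065 and 0.026 across genes, and those of hens of different number at -0.156 to 0.125. These values cannot decide whether hens were paired.

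The 3 ratios kept their direction with 0.5 added to each count and without each hen (by RPKM they cannot change, since gene length and library total cancel), and without each hen the log2 differences were 2.53 to 4.12 (MMP1 to MMP10), 1.13 to 3.26 (MMP9 to MMP10) and 0.73 to 1.51 (MMP1 to MMP9). Ratios to TBP, GAPDH and ACTB were not run, since no identifier was paired with these names. At 2 to 16 counts in non-layers, the folds of MMP1 and MMP9 are limited by depth.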

Other observations

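Set against AVD, the gene of the egg-white protein avidin, the order of the groups was the opposite for all 3 genes. Per 1000 AVD counts, MMP10 had 31.3, 63.7 and 28.4 counts in layers 1, 2 and 3, but 5320, 7190 and 815 in non-layers 1, 2 and 3. MMP1 had 1.34, 4.23 and 3.59 in layers beside 21.5, 29.9 and 29.8 in non-layers. MMP9 had 1.66, 4.62 and 1.51 in layers beside 32.3, 44.8 and 95.2 in non-layers. AVD itself was at 22312, 25779 and 12542 counts in layers, whereas non-layers 1, 2 and 3 had 93, 67 and 168. Set against LUM, a fibroblast marker, MMP10 had 3190, 4730 and 1300 counts per 1000 LUM counts in layers 1, 2 and 3, but 156, 286 and 33.0 in non-layers 1, 2 and 3. Both reference genes were chosen after the data were seen, AVD as a gene higher and LUM as a gene lower in layers, so the directions follow from that choice.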
